A study of Mus musculus with 4 samples.

Results

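Astrocytes and Bergmann glia, the astrocytes whose radial fibres span the molecular layer of the cerebellum, were followed through 34 genes that they transcribe. The genes were listed by name, with earlier results of these data known, so counts over them are descriptions. Every non-control probe whose RefSeq accession led to one of them was taken. In all, 49 probes were found for the 34 genes. The array held 22911 named genes, 16524 of them with a probe that passed the filter on dim signals. Total RNA of mouse cerebellum at postnatal day 28 was hybridised to 4 one-colour Agilent arrays, 2 for control and 2 for knockout (KO). The mice were C57BL/6, the controls were homozygous for a floxed allele of Derl2 (Derlin-2 flox/flox), and KO animals were bred from this line and a Cre line driven by the nestin promoter. The nestin promoter is active in neural precursors, from which neurons, oligodendrocytes and astrocytes all arise, so the deletion is not limited to one of these. The labels name no Cre allele for the controls, no sex, and do not say whether a sample was 1 animal or a pool, so the spread between replicates may in part be technical. The deleted gene, Derl2, makes Derlin-2, which sits in the endoplasmic reticulum membrane and helps to remove misfolded proteins.

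Astrocytes clear glutamate and potassium released by neurons, move water along their perivascular endfeet, and are joined to each other by gap junctions. Bergmann glia guide granule cell migration during development and later ensheathe the synapses on Purkinje cell dendrites; Gdf10, Hopx and Fabp7 are commonly used to mark them in the cerebellum. The question put to the data was whether transcripts of these cells differed between KO and control cerebellum, and whether the Bergmann glia markers differed in the way of the genes that astrocytes share.

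Values are log2 signals relative to the array's 75th percentile, so a difference of −1 is a halving of the signal, and each gene is given by its brightest probe. The groups were compared with limma over the 37516 probes detected above background on both control arrays, both KO arrays or all of them, with Benjamini-Hochberg adjustment. Spots well above background made up 66.4% to 69.4% of each array, and none was saturated. The brighter Derl2 probe had 2.13 and 2.20 in control and 0.81 and 0.70 in KO, a difference of −1.41, and the dimmer one differed by −1.73, so that the deleted gene followed the labels on each array. All arrays lay on 1 slide, controls at positions 1 and 2 and KO at positions 3 and 4, so position and group cannot be told apart. The array of control replicate 2 stood apart in 2 respects: 8 choroid plexus markers summed to 190.7% of the control mean there, with all 8 highest there, against 9.27% for its replicate and 9.85% to 9.86% in KO, and all 4 measured red blood cell markers were highest there. The array of control replicate 1 held a patch of raised local background, on which 1 of the 34 genes, Mfge8, had its spot.

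All 34 genes were well above background on all 4 arrays of the labelled cerebellum. Their signals were lower in KO by a small amount: 28 genes had a difference below 0 and 6 above, with a median of −0.15, against a median of −0.06 and 63.9% below 0 over all named genes by their brightest probe, and −0.03 and 54.8% over all probes. No gene passed an adjusted p of 0.05, as was the case for 0% of the 37516 probes (0 probes, limma). At an unadjusted p under 0.05 there were 3 of the 34 genes, Gpr37l1, Kcnj10 and Clu, all lower in KO; this is 8.82%, next to 8.81% of all named genes and 14% of all probes. By direction, 5.65% of named genes and 5.2% of probes were lower in KO at that unadjusted threshold, and 3.16% and 8.84% were higher, against 0 of the 34 genes. Most of the 34 genes were bright: 32 had a mean signal above the 75th percentile, as did 9266 named genes. Among these bright genes, 9.38% of the 32 passed that threshold, all lower in KO, against 4.83% of the 9266. Of the 9266, 3.17% were lower and 1.66% higher. In 17 genes (50%) both KO arrays lay below both control arrays, against 32.1% of named genes and 26.9% of probes, and in 0 genes did both lie above, against 13.8% and 22.5%. In 15 genes, all lower in KO, the difference exceeded the gap between replicates in both groups; the same held in that direction for 22.9% of named genes and 18.9% of probes.

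The sizes were modest. Of the 34 differences, 29 were under 0.3 in size, and none reached 2-fold, as did 1.54% of all probes. The limma standard error (SE) had a median of 0.12 over the genes, so most single differences were of the size of their own error. Of the 34 genes, 16 had their lowest value on KO replicate 1 and 10 on KO replicate 2, while 14 had their highest value on the array of control replicate 1 and 15 on that of its partner. The median difference was −0.20 for KO replicate 1 and −0.16 for KO replicate 2 against control replicate 1, and −0.14 and −0.10 against control replicate 2. It was thus below 0 for each of the 4 pairs, as was that of all named genes, between −0.06 and −0.05. Scaling the arrays to spike-in probes moves every gene alike: the median of all probes went from −0.03 to 0.06 and that of the 34 genes from −0.15 to −0.07. Under it 11 genes were entirely lower and 3 entirely higher in KO, and 7 of the 28 genes turned to the other side of 0. The shares of all probes with separate groups under this scaling are not given here. In whole tissue, fewer cells of a type and less RNA per cell cannot be told apart.

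**Figure D1:**
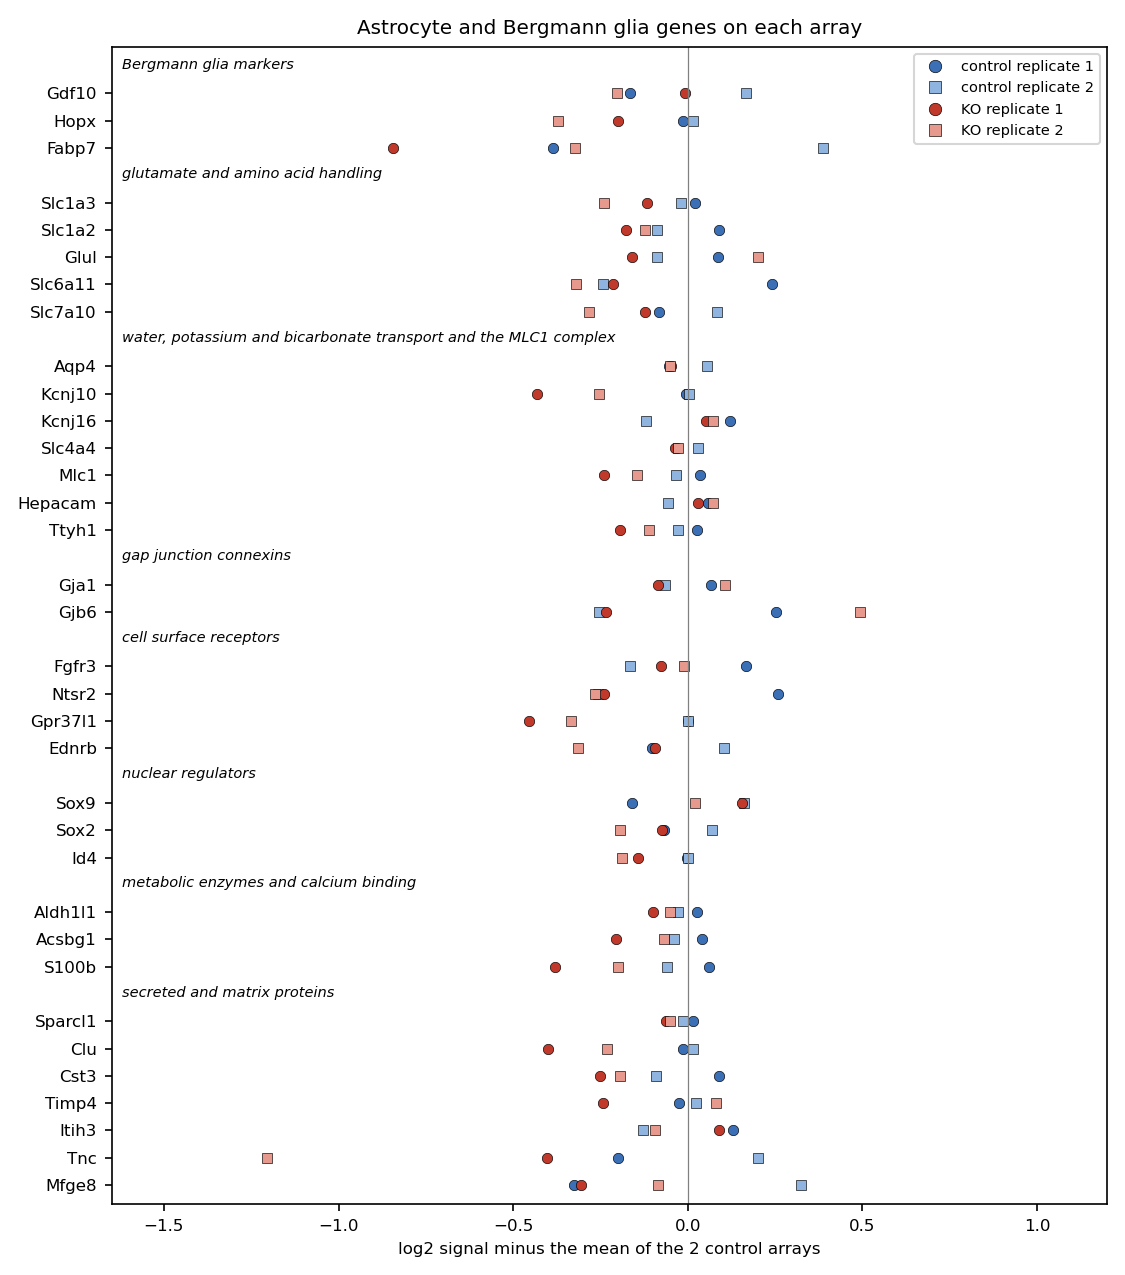
Each row is 1 gene, grouped by role, and each point is 1 array; the x axis is the log2 signal minus the mean of the 2 control arrays, blue for control, red for KO, circles for replicate 1 and squares for replicate 2. Most KO points lie to the left of 0, and Tnc, Fabp7 and Gjb6 have the widest spread.

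The 3 Bergmann glia markers were all lower in KO on average, with separate groups in Hopx, and the differences between them were not tested. Hopx, a small homeodomain protein without DNA binding of its own, had signals of 4.32 and 4.35 in control and 4.14 and 3.97 in KO. Both KO arrays lay below both controls, with means of 4.34 ± 0.0198 and 4.05 ± 0.12 (SD, n = 2 each), a difference of −0.29 (SE 0.11; limma adjusted p 0.374). Gdf10, a secreted member of the transforming growth factor beta family, had 3.75 and 4.09 in control and 3.91 and 3.72 in KO. The groups overlapped, with means of 3.92 ± 0.236 and 3.82 ± 0.139 (SD, n = 2 each) and a difference of −0.11 (SE 0.16; limma adjusted p 0.786). Fabp7, the brain fatty acid binding protein, had 4.12 and 4.89 in control and 3.66 and 4.18 in KO. Its means were 4.51 ± 0.545 and 3.92 ± 0.369 (SD, n = 2 each), a difference of −0.58 (SE 0.33; limma adjusted p 0.48), but the replicates were 0.77 apart in control and 0.52 apart in KO, and KO replicate 2 lay above control replicate 1.

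All 3 markers were highest on control replicate 2, the array with the choroid plexus signal. Without that array the difference was −0.27 for Hopx, −0.20 for Fabp7 and 0.06 for Gdf10, so that Gdf10 changed sign. Fabp7 differed by −0.97 without control replicate 1 and by −0.32 without KO replicate 1. The part of the other tissue in these values was not tested. The median of the 3 markers was −0.29, and that of the other 31 genes −0.15. Without control replicate 2 the medians were −0.20 and −0.13. The 3 markers ranged from −0.58 to −0.11, inside the range of −0.80 to 0.13 among the other 31. The low end of that range was Tnc alone, a gene of dim signal. Next lowest of the 31 was Gpr37l1 with −0.40, so Fabp7 was lower than every one of them except Tnc.

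**Figure D2:**
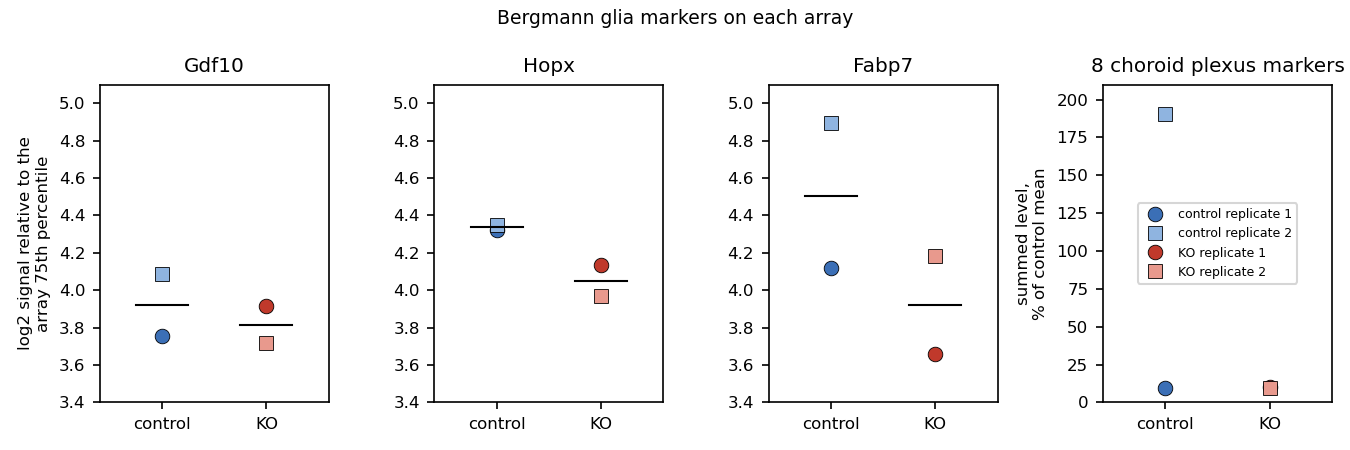
The 3 panels on the left show the log2 signal of Gdf10, Hopx and Fabp7 on each array, with lines at the group means; the right panel shows the summed level of 8 choroid plexus markers as a percent of the control mean. Control replicate 2 is highest in all panels, and Hopx alone has separate groups.

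The sequences before the start sites of these markers are printed because they are the 3 genes the comparison turns on. Each is the 250 bases upstream of the start in RefSeq (GRCm38.p6), 5′ to 3′, with CCAAT or its reverse complement in capitals. The windows are chr14:33923337-33923586, forward strand for Gdf10, chr5:77115124-77115373, reverse strand for Hopx and chr10:57784673-57784922, forward strand for Fabp7.
Gdf10: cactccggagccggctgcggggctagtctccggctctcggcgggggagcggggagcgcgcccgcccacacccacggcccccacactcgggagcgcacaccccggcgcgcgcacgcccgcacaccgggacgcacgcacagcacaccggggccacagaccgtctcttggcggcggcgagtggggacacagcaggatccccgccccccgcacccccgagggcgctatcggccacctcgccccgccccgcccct
Hopx: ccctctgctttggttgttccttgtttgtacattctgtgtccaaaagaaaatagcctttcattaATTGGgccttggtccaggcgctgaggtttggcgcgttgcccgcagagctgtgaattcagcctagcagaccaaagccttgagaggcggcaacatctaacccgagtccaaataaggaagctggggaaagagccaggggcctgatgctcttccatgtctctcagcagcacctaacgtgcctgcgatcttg
Fabp7: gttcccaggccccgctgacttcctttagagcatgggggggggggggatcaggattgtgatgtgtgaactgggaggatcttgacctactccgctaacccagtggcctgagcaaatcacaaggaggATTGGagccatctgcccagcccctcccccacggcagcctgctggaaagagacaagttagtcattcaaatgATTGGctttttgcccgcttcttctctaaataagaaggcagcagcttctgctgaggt
The windows differ in base composition: G and C make up 78.8% for Gdf10, 52.4% for Hopx and 54.8% for Fabp7. CCAAT occurred 1 time for Hopx and 2 times for Fabp7 and was not found in these letters for Gdf10.

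Among genes for the handling of glutamate and other amino acids, 4 of 5 had a difference below 0 and 3 had separate groups, with a median of −0.18. Slc1a3, the main glutamate transporter of Bergmann glia, had 5.32 and 5.28 in control and 5.19 and 5.06 in KO, a difference of −0.18 (SE 0.11). Slc1a2, the glutamate transporter of most other astrocytes, had 2.55 and 2.37 against 2.29 and 2.34, a difference of −0.15 (SE 0.12). In both transporters the KO arrays lay below the control arrays, and in Slc1a2 the difference was smaller than the gap between the controls. Slc7a10, a carrier of small neutral amino acids such as glycine and D-serine, had 2.37 and 2.53 against 2.33 and 2.17, a difference of −0.20. Slc6a11, a GABA transporter, had −0.95 and −1.44 against −1.41 and −1.52. Control replicate 1 alone was high for Slc6a11, and the difference of −0.27 became −0.03 without it.

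Glul encodes glutamine synthetase, which turns the glutamate taken up into glutamine. Its signals were 5.48 and 5.31 in control and 5.24 and 5.60 in KO, so the groups overlapped, with means of 5.40 ± 0.124 and 5.42 ± 0.255 (SD, n = 2 each) and a difference of 0.02 (SE 0.17; limma adjusted p 0.966). Its other probes differed by 0.03 and −0.01. On all 3 probes control replicate 1 and KO replicate 2 were the high arrays. The sign turned to −0.07 without control replicate 2 and to −0.16 without KO replicate 2.

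The 7 genes for water, potassium and bicarbonate transport and the MLC1 complex had a median of −0.05, with 5 below 0 (3 under quantile normalization and spike-in scaling) and 3 with separate groups. Kcnj10, the inward rectifier potassium channel subunit of glial potassium uptake, had the largest difference among them. Its signals were 4.97 and 4.98 in control and 4.55 and 4.72 in KO. Both KO arrays were low, with means of 4.98 ± 0.00571 and 4.64 ± 0.126 (SD, n = 2 each), a difference of −0.34 (SE 0.11; limma unadjusted p 0.0358, adjusted p 0.334), and the KO signal was 78.9% of control. Kcnj16, a subunit that forms channels together with it, had 2.0 and 1.76 in control and 1.94 and 1.95 in KO. Both KO values of Kcnj16 lay between the controls, with means of 1.88 ± 0.17 and 1.95 ± 0.0132 (SD, n = 2 each) and a difference of 0.06 (SE 0.13; limma adjusted p 0.838), which was −0.06 without control replicate 2. Whether the 2 subunits differed from each other in their response was not tested.

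Aqp4, the water channel of astrocyte endfeet, had 3.93 and 4.04 in control and 3.94 on both KO arrays. Its difference was −0.05 (SE 0.10), with overlapping groups, and was 0.01 under quantile normalization and 0.03 under spike-in scaling. A second, dimmer Aqp4 probe differed by −0.18. Slc4a4, a sodium bicarbonate cotransporter, was as close, with 5.26 and 5.32 against 5.25 and 5.26 and a difference of −0.03, which was 0.03 and 0.05 under those scalings. Mlc1, a membrane protein of endfeet that is lost in a leukodystrophy with cysts, had 5.95 and 5.88 against 5.67 and 5.77. Its difference was −0.19 (SE 0.10), with both KO arrays below both controls. Hepacam, the adhesion molecule that brings Mlc1 protein to cell contacts, had 0.34 and 0.23 against 0.31 and 0.36. The Hepacam groups overlapped, with means of 0.29 ± 0.0802 and 0.34 ± 0.0303 (SD, n = 2 each) and a difference of 0.05 (SE 0.10; limma adjusted p 0.843), which was −0.01 without control replicate 2. Ttyh1, a membrane protein of the tweety family, had 2.58 and 2.52 against 2.35 and 2.44, a difference of −0.15 (SE 0.10) with separate groups.

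The 2 gap junction connexins were the group without a difference below 0. Gja1, which encodes connexin 43, had 0.77 and 0.64 in control and 0.62 and 0.81 in KO. The groups overlapped, with means of 0.71 ± 0.0939 and 0.72 ± 0.136 (SD, n = 2 each) and a difference of 0.01 (SE 0.12; limma adjusted p 0.977), and its other probes differed by 0.08 and −0.05. Without control replicate 2 the difference of Gja1 was −0.06, without KO replicate 2 −0.09, and under normexp background correction −0.003. Gjb6, which encodes connexin 30, had 4.02 and 3.51 in control and 3.53 and 4.26 in KO. The replicates of Gjb6 were 0.51 and 0.73 apart, with means of 3.76 ± 0.359 and 3.89 ± 0.513 (SD, n = 2 each) and a difference of 0.13 (SE 0.32; limma adjusted p 0.868). It was 0.49 without KO replicate 1, −0.23 without KO replicate 2 and −0.12 without control replicate 2.

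Gjb6 and Glul shared an order of arrays that did not follow genotype. Each was more than 0.15 higher on control replicate 1 than on control replicate 2. Each was also more than 0.15 higher on KO replicate 2 than on KO replicate 1. This pattern was met by 2 of the 34 genes (5.88%) and by 4.88% of all probes, so it was about as common among the 34. The second Gjb6 probe, with −1.31 and −1.97 in control and −1.86 and −1.03 in KO, had the same order as the first. By the same limits, 5 of 39 other astrocyte genes (Eva1a, F3, Mt2, Ntrk2 and Slc15a2), 0 of 10 other Bergmann glia genes and 4 of 8 oligodendrocyte markers (Cldn11, Mbp, Mobp and Mog) had this order. It also held for 1 marker each of Purkinje cells, microglia and endothelium. The pattern was picked out after the values were seen.

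**Figure D3:**
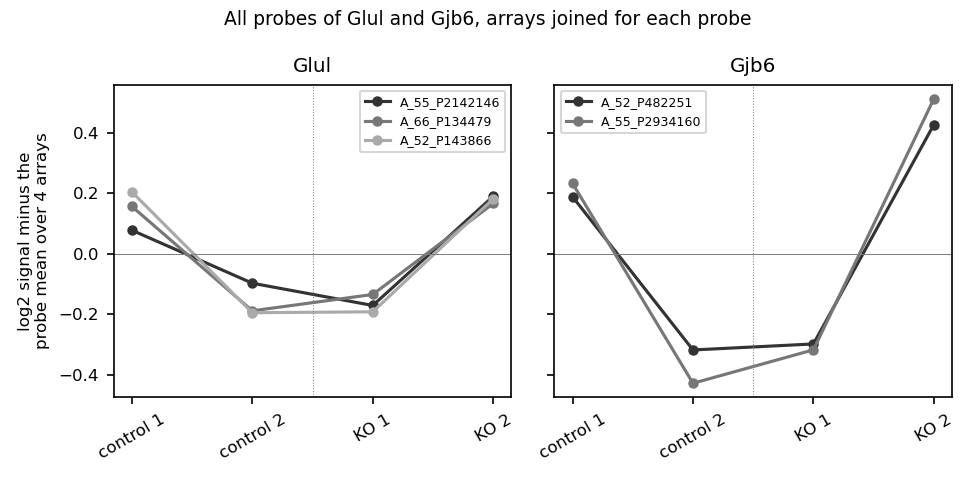
Points are the log2 signals of the 3 Glul and 2 Gjb6 probes minus the mean of the probe over the 4 arrays, and lines join the points of 1 probe without implying an order of arrays. Control replicate 1 and KO replicate 2 are above 0 and the other arrays below 0 on all 5 probes.

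All 4 cell surface receptors had a difference below 0 (all but Fgfr3 under quantile normalization and spike-in scaling), with a median of −0.23, and 1 had separate groups. This was Gpr37l1, an orphan G protein-coupled receptor of astrocytes and Bergmann glia, which had the smallest p of the 34 genes. Its signal was 2.75 for both controls, 2.29 for KO replicate 1 and 2.41 for KO replicate 2. The means were 2.75 ± 0.000489 and 2.35 ± 0.085 (SD, n = 2 each), a difference of −0.40 (SE 0.10; limma unadjusted p 0.0168, adjusted p 0.29), and the KO signal was 76% of control. Over the 16 alternatives the difference ran from −0.455 to −0.311, the unadjusted p was under 0.05 in 13, and the adjusted p ran from 0.162 to 0.691. Ntsr2, a neurotensin receptor, had 4.35 and 3.83 in control and 3.85 and 3.82 in KO; control replicate 1 alone was high, and the difference of −0.25 became 0.005 without it. Ednrb, the endothelin receptor of astrocytes that vessel cells also transcribe, had 1.61 and 1.82 against 1.62 and 1.40, with overlapping groups and a difference of −0.20. The other Ednrb probes differed by −0.27 and by 0.08. Fgfr3, a fibroblast growth factor receptor of astrocytes, had 3.89 and 3.56 against 3.64 and 3.71, a difference of −0.04 that was 0.01 under quantile normalization, 0.04 under spike-in scaling and 0.12 without control replicate 1.

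The upstream windows of Gpr37l1 and Kcnj10 are printed because these are the 2 genes of the 34 with the smallest p. They are 250 bases each in GRCm38.p6, at chr1:135167682-135167931, reverse strand for Gpr37l1 and chr1:172340960-172341209, forward strand for Kcnj10, with CCAAT or its reverse complement in capitals.
Gpr37l1: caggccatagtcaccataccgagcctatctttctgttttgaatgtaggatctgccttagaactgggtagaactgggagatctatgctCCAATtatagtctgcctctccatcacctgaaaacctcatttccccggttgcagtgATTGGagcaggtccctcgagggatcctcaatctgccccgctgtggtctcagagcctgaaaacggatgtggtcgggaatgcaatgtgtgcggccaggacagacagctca
Kcnj10: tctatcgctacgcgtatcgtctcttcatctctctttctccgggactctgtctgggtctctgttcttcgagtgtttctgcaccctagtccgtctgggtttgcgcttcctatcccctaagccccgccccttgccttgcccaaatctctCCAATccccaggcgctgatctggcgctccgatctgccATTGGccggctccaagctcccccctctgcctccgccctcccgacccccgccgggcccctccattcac
Each window held CCAAT 2 times, 1 time on each strand, and G and C made up 52% for Gpr37l1 and 62% for Kcnj10.

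Of the 3 nuclear regulators, Sox2 and Id4 had separate groups. Sox2, a transcription factor of neural precursors that astrocytes keep, had 1.13 and 1.26 in control and 1.12 and 1.0 in KO, a difference of −0.13 (SE 0.11) that was smaller than the gap between its controls. Id4, an inhibitor of basic helix-loop-helix factors, had 1.94 in both controls against 1.80 and 1.75 in KO, a difference of −0.17 (SE 0.10). Sox9, which directs astrocyte fate, had 0.20 and 0.53 against 0.52 and 0.39. The Sox9 groups overlapped, with means of 0.37 ± 0.228 and 0.45 ± 0.0954 (SD, n = 2 each) and a difference of 0.09 (SE 0.15; limma adjusted p 0.81), and its second probe differed by 0.04. Without control replicate 1 the difference of Sox9 was −0.07.

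The 3 genes for metabolic enzymes and calcium binding all had both KO arrays below both controls, with a median of −0.14, though Aldh1l1 turned above 0 under spike-in scaling. S100b, a calcium-binding protein used as a glial marker, had 6.93 and 6.81 in control and 6.49 and 6.67 in KO. Its means were 6.87 ± 0.0851 and 6.58 ± 0.128 (SD, n = 2 each), a difference of −0.29 (SE 0.12; limma adjusted p 0.388). Acsbg1, an acyl-CoA synthetase for long fatty acids, had 4.70 and 4.62 against 4.45 and 4.59, a difference of −0.14 (SE 0.11). Aldh1l1, the folate enzyme widely used to label astrocytes, had 4.16 and 4.10 against 4.03 and 4.08. Its difference of −0.08 (SE 0.10) was the smallest of these, and was 0.01 under that scaling.

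All 7 secreted and matrix proteins had a difference below 0 (all but Itih3 under quantile normalization, and all but Itih3, Sparcl1 and Timp4 under spike-in scaling), with a median of −0.20, and 4 had separate groups. Clu, the extracellular chaperone clusterin, had 6.77 and 6.79 in control and 6.38 and 6.55 in KO. The means were 6.78 ± 0.0202 and 6.46 ± 0.119 (SD, n = 2 each), a difference of −0.32 (SE 0.11; limma unadjusted p 0.0439, adjusted p 0.346), and the KO signal was 80.3% of control. Choroid plexus also transcribes Clu. The control arrays differed by 0.03 for this gene, and without control replicate 2 the difference was −0.30. Tnc, the matrix protein tenascin-C, was dim, with −2.39 and −1.99 in control and −2.60 and −3.40 in KO. It had the largest difference of the 34 genes, with means of −2.19 ± 0.282 and −3.00 ± 0.566 (SD, n = 2 each), a difference of −0.80 (SE 0.32; limma adjusted p 0.374), and its second probe differed by −0.72. KO replicate 2 was the low array for Tnc; the difference was −0.40 without it, −1.20 without KO replicate 1, and −0.50 under normexp background correction.

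Cst3, the protease inhibitor cystatin C, had 5.99 and 5.80 in control and 5.64 and 5.70 in KO, a difference of −0.22 (SE 0.12) with separate groups. On its second probe the difference was −0.16, with overlap. Sparcl1, a matrix protein that promotes synapse formation, was measured by 10 spots per array. Its signals were 7.87 and 7.84 against 7.80 and 7.81, so the groups were separate by a narrow margin, with a difference of −0.06 (SE 0.10) that was 0.03 under spike-in scaling. Mfge8, which bridges dying cells to phagocytes, had 4.67 and 5.32 against 4.69 and 4.91. Control replicate 2 alone was high for Mfge8, and the difference of −0.20 became 0.13 without it. The control value then rests only on control replicate 1, where the Mfge8 spot lay on the patch of raised background. Without control replicate 1 the difference was −0.52. Timp4, a metalloproteinase inhibitor, had 4.54 and 4.59 against 4.33 and 4.65, a difference of −0.08 that was 0.004 under spike-in scaling and 0.08 without KO replicate 1, and its second probe differed by −0.24. Itih3, which binds hyaluronan in the matrix, had 3.54 and 3.29 against 3.50 and 3.32, a difference of −0.002 whose sign changed under 7 of the 16 alternatives.

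**Figure D4:**
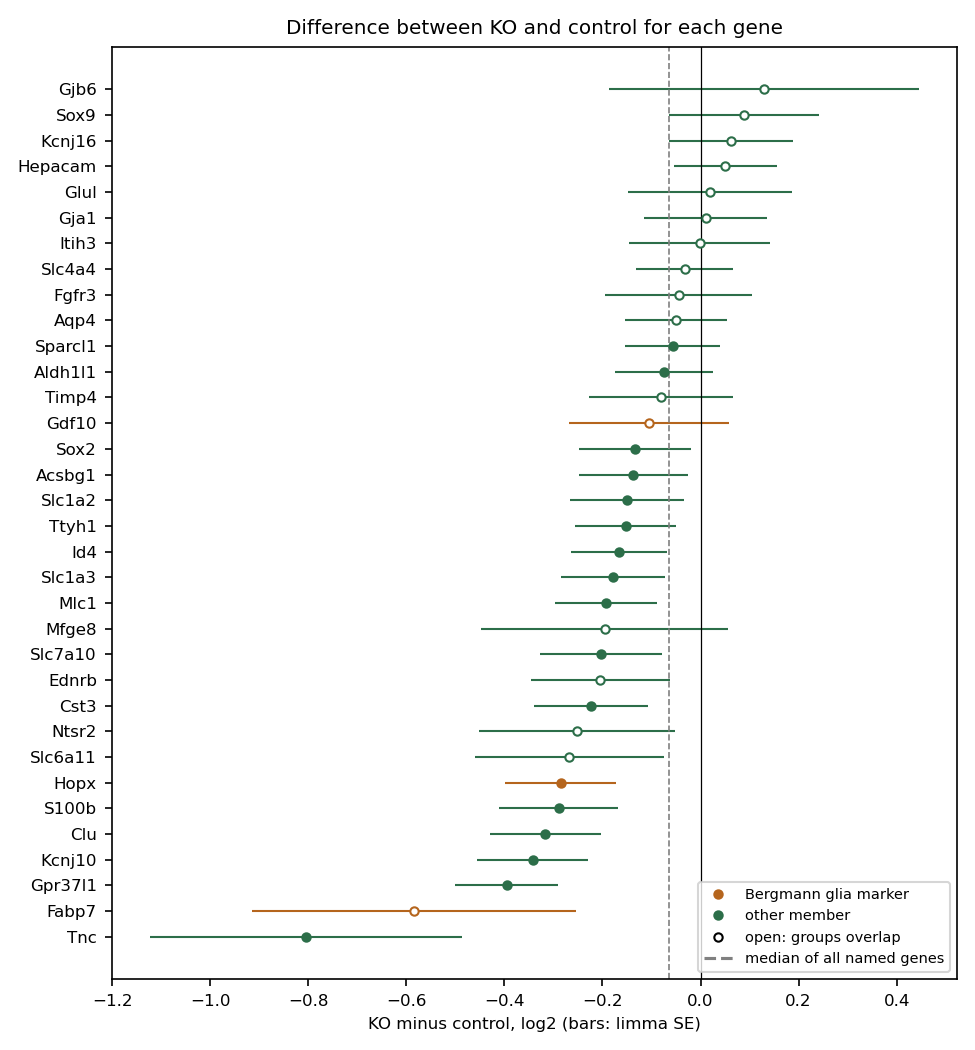
Points are the KO minus control differences on the log2 scale by brightest probe, with the limma SE as bars; filled points mark genes whose 2 KO arrays lie on one side of both controls, and the dashed line marks the median of all named genes. The filled points all lie below 0, Hopx and Gdf10 lie among the other genes, and Fabp7 lies below all of them except Tnc.

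Further probes of a gene mostly shared the sign of its brightest one. Of the 34 genes, 12 had more than 1 probe, and of their 15 further probes 12 had the sign of the brightest one. The 3 others belonged to Ednrb, Gja1 and Glul and differed by 0.08, −0.05 and −0.01. The widest gap between a further probe and the brightest was 0.28, for Ednrb, and that of Timp4 was 0.16. Both exceeded the size of the median difference of the 34 genes, −0.15. Probes of 1 gene share the RNA sample, so they bear on the measurement and not on the difference between mice.

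Genes of the same cells outside the 34 were read from 2 further lists. Of 39 other astrocyte genes, 28 (71.8%) had a difference below 0, against 63.9% of all named genes, with a median of −0.13. In KO 16 (41.0%) were entirely lower and 2 (5.13%) entirely higher, against 32.1% and 13.8% of named genes. Of these 39, 0 passed the adjusted threshold with limma. An unadjusted limma p under 0.05 was met by 8.81% of named genes, 5.65% lower and 3.16% higher. Among the 39 other astrocyte genes 3 (7.69%) met it, all lower in KO. These were Lcat, the enzyme that esterifies cholesterol on lipoproteins, with −0.45, Cldn10, a claudin, with −0.33, and Tril, a partner of Toll-like receptors, with −0.36. The 3 genes above 0 with the smallest p were Slc15a2, a peptide transporter, with 0.49 and overlapping groups, Cbs, which makes cystathionine, with 0.13 and separate groups, and the metallothionein Mt1 with 0.14 and overlapping groups. Gfap, the intermediate filament that rises in reactive astrocytes, had 2.29 and 2.23 in control and 2.24 and 2.42 in KO, with overlap, and Aldoc, the astrocyte aldolase, had 8.13 on both control arrays and 8.13 and 8.22 in KO.

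The 10 other Bergmann glia genes had a median of −0.04, with 6 (60%) below 0, 2 (20%) entirely lower in KO and 0 entirely higher. Of all named genes, 63.9% were below 0, 32.1% entirely lower and 13.8% entirely higher. The lower 3 with the smallest p were Dao, the D-amino acid oxidase of Bergmann glia, with −0.23, the AMPA receptor subunit Gria4 with −0.12, and the filament protein Vim with −0.09. Above 0 lay Ptprz1, a receptor phosphatase, with 0.03, and the septin Septin4 with 0.01, both with overlapping groups. Gli1, a target of the hedgehog signal that Purkinje cells send to Bergmann glia, had 1.33 on both control arrays and 1.15 and 1.53 in KO. None of the 10 had an unadjusted limma p under 0.05, against 8.81% of named genes. Several of these genes are also transcribed by neurons or vessel cells. How strictly they or the 3 markers stand for Bergmann glia in this tissue was not tested.

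Markers of other cells were read beside these values. The median difference was −0.24 over 6 microglia markers, all below 0, and −0.20 over 8 oligodendrocyte markers, 7 of them below 0. It was −0.06 over 6 Purkinje cell markers, −0.04 over 6 granule cell markers, −0.04 over 5 endothelial markers and −0.16 over 3 markers of oligodendrocyte precursors. The astrocyte median of −0.15 thus lay between those of the neurons and those of oligodendrocytes and microglia, with no test of the differences. The summed level of the microglia markers was 101.1% and 98.9% of the control mean in control and 78.5% and 91.6% in KO, and that of the oligodendrocyte markers 102.8% and 97.2% against 86.8% and 96.0%. In both, KO replicate 1 was the lowest array, as it was for 16 of the 34 astrocyte and Bergmann glia genes. The meningeal fibroblast markers summed to 98.8% and 101.2% in control and to 80.0% and 97.1% in KO. Sums of other lists were less uniform. On KO replicates 1 and 2 they were 93.9% and 96.2% for Purkinje cell and 94.1% and 96.5% for granule cell markers. They were 97.3% and 106.3% for endothelial markers and 79.8% and 100.7% for markers of oligodendrocyte precursors. The 39 other astrocyte genes summed to 88.1% and 108.0%, so the sum on KO replicate 2 lay above both controls. Bright genes weigh most in such sums, and Aldoc, Mt1 and Mt2, the brightest of the 39, were highest on that array. By contrast, the median difference of the 39 on KO replicate 2 was −0.15 against control replicate 1 and −0.07 against control replicate 2. Each list had all its measured markers well above background on at least 1 array.

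**Figure D5:**
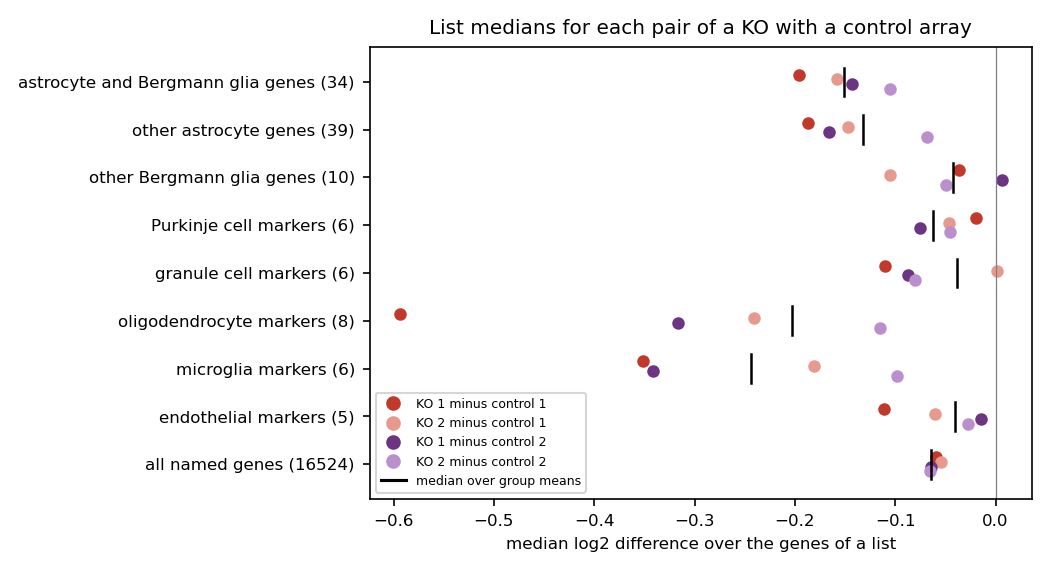
For each gene list (number of genes in brackets), points are the median log2 difference over its genes for each pair of a KO with a control array, and the black line is the median over group means. The astrocyte lists lie left of all named genes, near −0.15 and −0.13, with the oligodendrocyte and microglia lists further left and more spread between pairs.

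For 30 of the 34 genes the RefSeq promoter table used here held an entry, and 6 motifs were searched on both strands in the 250 bases before the first listed start. CCAAT, bound by the NF-Y factor, occurred in 14 of the 30 (46.7%), against 33.8% of 32851 promoters. The SOX motif ACAAAG occurred in 1 of 30 (3.33% against 16.5%), in Sox2 itself, and the RBPJ motif GTGGGAA of the Notch pathway in 1 of 30, in Mfge8 (3.33% against 5.42%). The GLI motif CCACCCA occurred in 3 of 30, Slc4a4, Itih3 and Gjb6 (10% against 8.11%), TATAAA in 2 of 30 (6.67% against 12.4%), and the paired NFI motif TGGCNNNNNGCCA in 0 of 30, against 0.703%. No match of one motif shared bases with a match of another. These are matches of letters in a short window, and no binding was measured.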

How the data were processed

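Cy3-labelled RNA (150 ng per sample) of cerebellum, 2 control and 2 KO samples, was hybridised to one-colour arrays, as the labels' protocols say; sample titles gave group and replicate. The deposited processed signal is an intensity from which the scanner software had taken the local background and a spatial trend. Per the file headers this software was version 12.1.1.1 of Feature Extraction, and per the submitters' processing notes 10.7.1.1. The authors' deposited series table holds log2 values whose centring and scaling are not given in the sources used here. Flag columns in the deposited files mark control, outlier and saturated spots and spots well above background.

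Outlier spots (65 to 176 per array) were left out, log2 signals of spots with the same probe were averaged, and values were set relative to the 75th percentile of their array. A probe counted as well above background where at least 0.5 of its spots were. Probes that met this on every array of a group were kept. RefSeq accessions were named through a RefSeq table (GRCm38.p6; 91.9% of 35886 matched). KO and control were compared with limma 3.58.1 in R 4.3.3 (lmFit, eBayes, no covariates, 4.35 degrees of freedom). The same fit was also run on values simulated from these data with known differences, and its outcome is not given here. Promoter sequences are from RefSeq. The 34 genes, the lists and the alternatives were chosen with earlier results of these data known. Every one of the 34 genes is named; means with SD, SE and adjusted p are given for the Bergmann glia markers and the 6 genes per direction with the smallest p, and of each further astrocyte list the 3 genes per direction with the smallest p are named, except 1 that is not reported here; Gfap, Aldoc and Gli1 were added after their values were seen. The number of arrays limits the precision.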

Additional observations from a re-analysis of the deposited data

How the results depend on the processing

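Results were recomputed under 16 alternatives. Of 543 differences of single genes, 511 kept their direction and 32 did not. The intensity trend and the replicate block change only the error, so agreement under them was fixed in advance. The same holds with no filter on dim probes and with detection required on all 4 arrays, where each gene kept its value. The 32 belonged to 16 genes, among which Ntsr2 had the largest difference, −0.25; the 18 genes without a reversal were all lower in KO. None of the 34 genes passed the adjusted threshold under any alternative. Quantile normalization turned Aqp4 to 0.009, Slc4a4 to 0.027, Fgfr3 to 0.007 and Itih3 to 0.049. Spike-in scaling turned Aqp4 to 0.035, Slc4a4 to 0.052, Fgfr3 to 0.040, Aldh1l1 to 0.010, Sparcl1 to 0.028, Timp4 to 0.004 and Itih3 to 0.083. Normexp turned Gja1 to −0.003 and Itih3 to 0.031, and Itih3 was 0.002 in the authors' deposited log2 table and 0.001 with outlier spots kept. With 1 array left out, 13 genes crossed 0. Their ranges were −0.273 to 0.061 for Gdf10, −0.161 to 0.200 for Glul, −0.104 to 0.005 for Aqp4, −0.057 to 0.183 for Kcnj16, −0.006 to 0.107 for Hepacam, −0.086 to 0.106 for Gja1, −0.234 to 0.492 for Gjb6, −0.211 to 0.122 for Fgfr3, −0.510 to 0.005 for Ntsr2, −0.073 to 0.249 for Sox9, −0.242 to 0.081 for Timp4, −0.130 to 0.127 for Itih3 and −0.520 to 0.129 for Mfge8.

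With 1 array left out, the median of the 34 genes ran from −0.17 to −0.115, that of the Bergmann glia markers from −0.323 to −0.198 and that of the other genes from −0.161 to −0.104. Genes with separate groups then numbered 21 to 24 lower and 0 to 5 higher, with fewer arrays to separate, and 2 to 3 genes had an unadjusted p under 0.05. Quantile normalization moved the medians of all 34 and of the other 31 genes to −0.105 and −0.104, and spike-in scaling to −0.067 and −0.065, while the median of all probes moved from −0.028 to 0.004 and 0.056. The count of 3 genes at an unadjusted p under 0.05 became 9 under an intensity trend with robust variances and 7 under normexp. It became 1, Gpr37l1, under quantile normalization, under spike-in scaling and with no filter on dim probes. Normexp gave 1 gene entirely higher in KO, and spike-in scaling 11 lower and 3 higher. For counts at an unadjusted p or with separate groups, no share over all probes under the same alternative is given here. Such counts, also those with 1 array left out, are thus not read as particular to the 34 genes. Over all probes the adjusted count of 0 became 4 under the intensity trend and 2 under normexp. It was 1 with omission of patch spots, under spike-in scaling, under quantile normalization, and with arrays centred on the median of detected probes. With 1 array left out it ran from 0 to 98, the latter without control replicate 2. The cause of these moves was not tested. Replicate numbers are shared between groups, but the labels do not pair the mice, and deviations of same-numbered arrays correlated at 0.12 across 37516 probes. With the replicate block, 4 genes had an unadjusted p under 0.05, the 3 named and Fabp7, and 0 probes passed the adjusted threshold. Mfge8 had no value with patch spots left out. A lone array left in a group was assumed to vary like the other group.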
